A study of Arabidopsis thaliana with 6 samples.

Results

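The genes described here are 42 histone genes of Arabidopsis thaliana, found by locus identifier among the 30509 genes of the deposited expression table. They were chosen by class and variant, by a rule that uses no measured value but was written with earlier results of these data known. The set held 3 linker histones H1, 4 H2A, 2 H2A.X, 3 H2A.Z, 3 H2A.W, 11 H2B, 5 H3.1, 3 H3.3 and 8 H4 genes, and every one of the 42 had a value on all 6 arrays.

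Germinated seeds of accession Col-0 at stage II, when the radicle protrudes, were compared in 2 groups of 3 biological replicates with 1 array each. The DT group (desiccation tolerant) was incubated for 3 d in the dark at 22 °C in polyethylene glycol (PEG) at -2.5 MPa, an osmotic agent that withholds water, and the DS group (desiccation sensitive) was collected at the same stage and received no treatment. Each replicate was a pool of whole germinated seeds. Germination took place in constant white light and no array of seeds kept for the same time without PEG was analysed, so PEG, darkness and time since germination cannot be told apart in the difference between DT and DS.

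In chromatin, DNA is wrapped around a core of H2A, H2B, H3 and H4, and linker histone H1 binds where DNA enters and leaves this core. The genes for canonical H2A, H2B, H3.1 and H4 are best known for their expression during S phase, when new DNA is packaged, whereas H3.3 and the H2A variants can also be put into chromatin outside replication. H2A.X is phosphorylated at DNA breaks, H2A.Z marks the start of genes and the bodies of responsive genes, and H2A.W is a plant variant of heterochromatin. H1.3 of Arabidopsis is known as a linker histone induced by drought and abscisic acid.

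Values are log2 signals of the array, and a difference is always DT minus DS. A gene was called when the difference was at least 1 in size and the unadjusted p of limma did not exceed 0.05. The median signal of the arrays lay between 4.72 and 4.78, correlations across genes were 0.957 to 0.977 within groups and 0.798 to 0.819 between groups, and the median SD of a gene was 0.0701 in DT and 0.0616 in DS. As a guide to background, 95% of 3629 genes annotated as pseudogenes had a mean below 4.98 in DT and 4.96 in DS, and 5 of the 42 histone genes (HTB3, HTB8, HTB10, AT2G28740 and AT5G59970) lay below these levels in both groups. Near that level a log2 difference understates the change of the transcript. An exact permutation test of 3 arrays against 3 cannot give a p below 0.1, so single genes are given limma's Benjamini-Hochberg adjusted p. Precision is limited by the number of arrays.

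Most histone genes were lower in DT, and 1 linker histone gene stood on the opposite side. Of the 42, 14 were called lower and 1 was called higher, where 1.36% of all genes were called lower and 0.862% higher, or 2.22% in either direction. By limma's adjusted p, at a threshold of 0.05, 31 were lower and 3 higher (HTA1, HTB8 and H1.3), against 19.9% and 9.97% of all genes, and 8 passed in neither direction. In 31 genes all 3 DT arrays lay below all 3 DS arrays and in 4 all lay above, where this held for 27.0% and 15.5% of all genes, and in 7 the groups overlapped. The median log2 difference was -0.67 over the 42 and -0.02 over all genes. The called falls were 2.03-fold to 5.84-fold. In whole germinated seeds, fewer cells that make histones and less histone RNA per cell cannot be told apart.

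**Figure D1:**
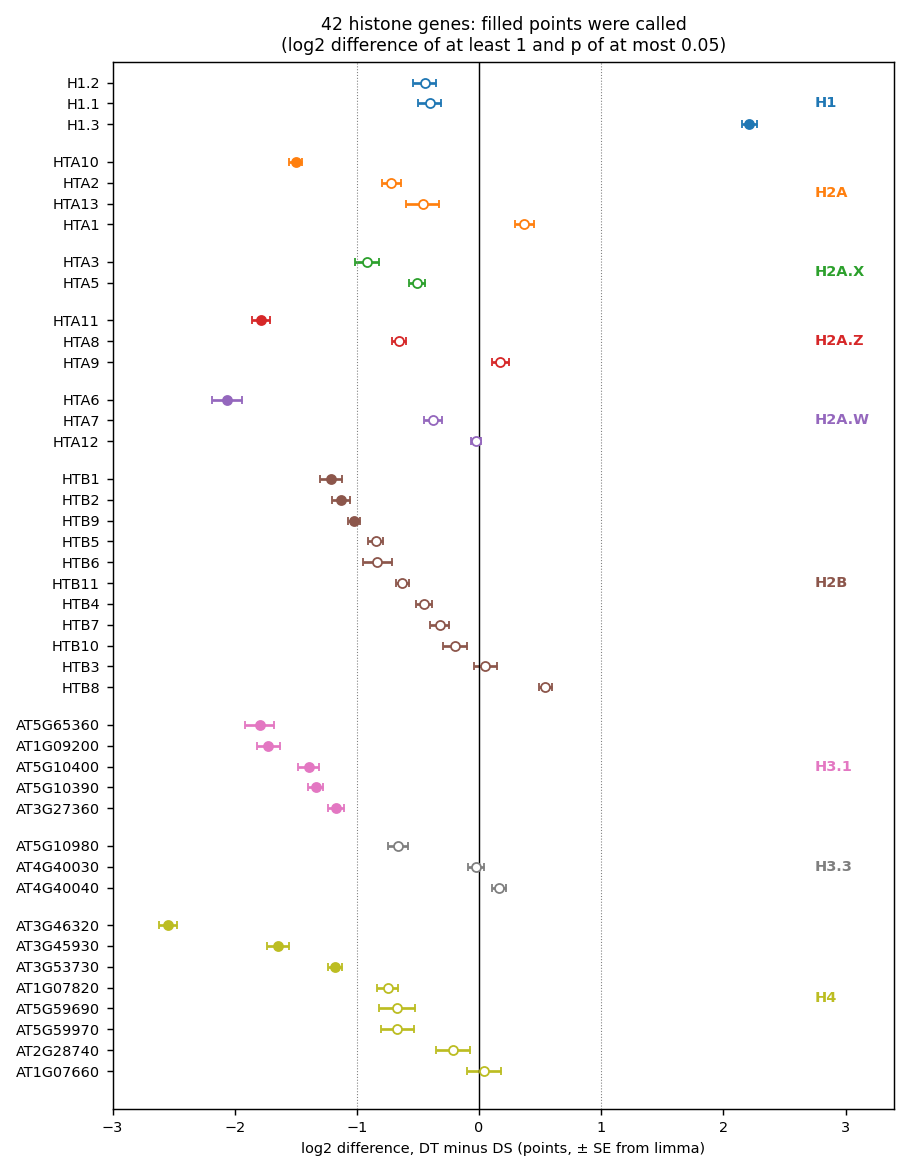
Log2 difference, DT minus DS (x axis), of each of the 42 histone genes (y axis), with the standard error from limma, 3 arrays a group. Colours are the 9 classes and filled points are called genes: 14 lie left of -1, with all 5 H3.1 genes among them, and H1.3 alone lies right of 1.

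H1.3 (AT2G18050, HIS1-3, chromosome 2, 7845923 to 7847031) was the 1 histone gene called higher. Its log2 signals were 6.58, 6.71 and 6.62 in DT, against 4.40, 4.53 and 4.34 in DS. All DT arrays lay above all DS arrays, and the DS signals were within the range of the pseudogenes. The mean was 6.63 ± 0.07 in DT and 4.42 ± 0.09 in DS (SD, n = 3 each), a log2 difference of 2.21 (standard error 0.06, adjusted p = 5.27e-07 from limma). With the DS level set to the pseudogene level of 4.96 in place of its own mean, the rise was at least 3.19-fold.

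The other linker histones, H1.1 and H1.2, are the main H1 proteins of growing tissues. H1.2 (AT2G30620) had 5.56, 5.93 and 5.86 in DT, against 6.21, 6.22 and 6.26 in DS, so the DT arrays were all lower. Its log2 difference was -0.45 (standard error 0.09, adjusted p = 0.00747 from limma), and that of H1.1 (AT1G06760) was -0.40 (adjusted p = 0.0118 from limma). H1.3 minus H1.1, taken on each array, was 0.49, 0.32 and 0.22 in DT and -2.21, -2.16 and -2.44 in DS. The absolute offset between genes depends on their probes, so only its shift between groups can be read. H1.3 encodes a shorter protein, of 167 residues, than H1.1 with 274 and H1.2 with 273. The median of the 3 H1 differences was -0.40 while the mean of their signals was 0.45 higher in DT, because H1.3 moved against the others.

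All 5 H3.1 genes were called lower in DT. Their log2 differences were -1.80 for AT5G65360, -1.73 for AT1G09200, -1.39 for AT5G10400, -1.34 for AT5G10390 and -1.17 for AT3G27360. AT5G65360 (chromosome 5, 26119859 to 26120581) had the greatest fall of the class, with 6.12, 5.63 and 5.87 in DT, against 7.57, 7.65 and 7.80 in DS (standard error 0.12, adjusted p = 2.24e-05 from limma). The least fall was that of AT3G27360 (chromosome 3, 10129105 to 10129937), with 5.41, 5.43 and 5.27 in DT, against 6.58, 6.45 and 6.58 in DS (standard error 0.06, adjusted p = 9.05e-06 from limma). In each of the 5 genes every DT array lay below every DS array. The mean over the class was 5.48, 5.34 and 5.31 on the DT arrays and 6.79, 6.86 and 6.93 on the DS arrays. AT5G10400 averaged 4.84 in DT, within the pseudogene range, and 6.24 in DS.

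None of the 3 H3.3 genes was called. AT5G10980 (chromosome 5, 3472405 to 3473570) had 7.24, 6.90 and 6.96 in DT, against 7.69, 7.70 and 7.70 in DS, with no overlap and a log2 difference of -0.66 (standard error 0.09, adjusted p = 0.000647 from limma). AT4G40040 (chromosome 4, 18557149 to 18558945) had 6.34, 6.25 and 6.31 in DT, against 6.04, 6.16 and 6.21 in DS. The DT arrays were all higher, but the difference of 0.16 (standard error 0.06) did not pass (adjusted p = 0.0773 from limma). It passed with arrays centred, with quantile normalization repeated and with dim genes left out, as given under the processing alternatives. AT4G40030 differed by -0.02 with overlapping groups, and this sign turned with centring and with repeated quantile normalization. AT4G40040 minus AT5G10980 was -0.90, -0.65 and -0.66 on the DT arrays and -1.65, -1.54 and -1.49 on the DS arrays.

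The H3.1 and H3.3 proteins of this set differ at 4 positions, or by an identity of 97.1%, and within each class the proteins are identical. One of the sites that separates them is residue 31, counted from the residue after the start methionine. It is shown here because it tells the class that fell throughout from the class that did not. The windows below are coding sequence, 5′ to 3′ on the gene's strand, from RefSeq TAIR10.1, with codon 31 in capitals: it reads as alanine in all 5 H3.1 genes and as threonine in all 3 H3.3 genes.
AT5G65360, H3.1, minus strand, chr5:26120396-26120434: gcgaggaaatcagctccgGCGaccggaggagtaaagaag
AT1G09200, H3.1, minus strand, chr1:2972019-2972057: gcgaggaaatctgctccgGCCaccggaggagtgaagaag
AT3G27360, H3.1, minus strand, chr3:10129756-10129794: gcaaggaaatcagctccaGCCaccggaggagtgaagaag
AT5G10390, H3.1, minus strand, chr5:3269362-3269400: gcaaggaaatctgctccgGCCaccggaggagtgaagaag
AT5G10400, H3.1, minus strand, chr5:3270775-3270813: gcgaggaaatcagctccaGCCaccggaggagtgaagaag
AT4G40030, H3.3, minus strand, chr4:18556222-18556260: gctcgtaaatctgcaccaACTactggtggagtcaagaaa
AT4G40040, H3.3, minus strand, chr4:18558036-18558074: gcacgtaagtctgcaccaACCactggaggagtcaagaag
AT5G10980, H3.3, minus strand, chr5:3472978-3473016: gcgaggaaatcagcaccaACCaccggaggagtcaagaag

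The 8 H4 genes encode identical proteins, but their signals did not move alike. AT3G46320 (chromosome 3, 17019785 to 17020428) had the greatest fall of the 42 histone genes, with 5.50, 5.39 and 5.45 in DT, against 7.87, 7.96 and 8.15 in DS. The mean was 5.45 ± 0.05 in DT and 7.99 ± 0.14 in DS (SD, n = 3 each), a log2 difference of -2.55 (standard error 0.07, adjusted p = 5.64e-07 from limma), or 5.84-fold lower. It ranked 9 among all genes by size of fall. AT3G45930 (-1.64) and AT3G53730 (-1.18) were also called lower. AT1G07820 (-0.75), AT5G59690 (-0.67) and AT5G59970 (-0.67) fell at the adjusted threshold of limma without being called. AT1G07660 (chromosome 1, 2368833 to 2369735) had 4.82, 5.10 and 5.18 in DT, against 4.75, 4.96 and 5.27 in DS. These arrays overlapped throughout, near background, and the difference of 0.04 (standard error 0.14, adjusted p = 0.877 from limma) changed sign when DS replicate 1 or DT replicate 3 was left out. AT2G28740, annotated as HIS4, differed by -0.21 with overlapping groups.

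The 11 H2B genes spanned differences of -1.21 to 0.54, with a median of -0.63. HTB1 (AT1G07790, chromosome 1, 2412938 to 2413790) had 5.04, 5.27 and 5.41 in DT, against 6.46, 6.41 and 6.49 in DS, which did not overlap. Its log2 difference was -1.21 (standard error 0.09, adjusted p = 3.57e-05 from limma). HTB2 (-1.13) and HTB9 (-1.02) were called lower as well, but HTB9 was no longer called with arrays centred (-0.98), with quantile normalization repeated (-0.91) or without DT replicate 3 (-0.997, just short of the threshold). HTB5, HTB6, HTB11, HTB4 and HTB7 fell by 0.85, 0.83, 0.63, 0.45 and 0.32 on the log2 scale, all past limma's adjusted threshold. HTB7 lost it with quantile normalization repeated (-0.23, adjusted p = 0.0639 from limma). HTB3 (0.05) and HTB10 (-0.20) had overlapping groups.

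HTB8 (AT1G08170, chromosome 1, 2562769 to 2563706) was the 1 H2B gene that rose. It had 4.95, 4.91 and 5.07 in DT, against 4.42, 4.46 and 4.43 in DS. The DT arrays were all higher, with a log2 difference of 0.54 (standard error 0.05, adjusted p = 0.000188 from limma), and the mean of both groups lay below the pseudogene level. Its predicted protein has 243 residues, against 126 to 151 in the other 10 H2B genes. HTB8 is known as an H2B variant of seeds and sperm with condensed chromatin, although its class places it among the canonical H2B genes here.

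Of the 4 canonical H2A genes, 3 fell and 1 rose. HTA10 (AT1G51060, chromosome 1, 18926811 to 18927746) had 5.90, 5.92 and 5.79 in DT, against 7.33, 7.40 and 7.37 in DS, a log2 difference of -1.50 (standard error 0.05, adjusted p = 1.23e-06 from limma). HTA1 (AT5G54640, chromosome 5, 22196287 to 22197492), which is also known as a gene needed for transformation by Agrobacterium, had 6.84, 6.87 and 7.06 in DT, against 6.46, 6.56 and 6.64 in DS. Its arrays did not overlap either, and the difference was 0.37 (standard error 0.07, adjusted p = 0.00639 from limma). HTA1 minus HTA10 was 0.95, 0.94 and 1.28 on the DT arrays, against -0.88, -0.83 and -0.74 on the DS arrays. HTA2 fell by 0.72. HTA13 fell by 0.46 (adjusted p = 0.0352 from limma), a call that was lost with arrays centred, with quantile normalization repeated and when any array but DT replicate 1 was left out.

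Both H2A.X genes fell without being called. HTA3 (AT1G54690, chromosome 1, 20414316 to 20415287) had 5.01, 4.81 and 4.89 in DT, against 5.99, 5.63 and 5.84 in DS, a log2 difference of -0.92 (standard error 0.10, adjusted p = 0.000218 from limma). HTA5 (AT1G08880, chromosome 1, 2846894 to 2848100) had 5.88, 5.91 and 5.90 in DT, against 6.36, 6.31 and 6.54 in DS, a log2 difference of -0.51 (standard error 0.06, adjusted p = 0.000614 from limma). Neither gene's groups overlapped. Without DS replicate 2, HTA3 reached -1.01 and was called.

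In H2A.Z, HTA11 (AT3G54560, chromosome 3, 20196140 to 20197726) was called lower, with 5.57, 5.32 and 5.55 in DT, against 7.30, 7.18 and 7.31 in DS. The log2 difference was -1.79 (standard error 0.08, adjusted p = 3.07e-06 from limma), 3.45-fold lower, which was greater in size than that of 4 of the 5 H3.1 genes. HTA9 (AT1G52740, chromosome 1, 19645236 to 19646485) had 7.30, 7.48 and 7.53 in DT, against 7.31, 7.19 and 7.28 in DS. Its groups overlapped through DT replicate 1, and the difference of 0.17 (standard error 0.07, adjusted p = 0.113 from limma) passed at 0.24 without that replicate and at 0.21 with quantile normalization repeated. HTA9 minus HTA11 was 1.73, 2.17 and 1.99 on the DT arrays and 0.02, 0.00 and -0.02 on the DS arrays. HTA8 fell by 0.66 (adjusted p = 8.57e-05 from limma).

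H2A.W showed the same kind of spread. HTA6 (AT5G59870, chromosome 5, 24115354 to 24116220) had 5.69, 5.15 and 5.40 in DT, against 7.48, 7.44 and 7.52 in DS, so that the DT arrays differed among themselves more than the DS arrays but stayed well below them. The log2 difference was -2.06 (standard error 0.12, adjusted p = 1.18e-05 from limma), 4.18-fold lower, rank 27 among all genes by size of fall. HTA7 fell by 0.38. HTA12 (AT5G02560, chromosome 5, 575225 to 577216) had 4.99, 4.96 and 4.92 in DT, against 4.97, 4.997 and 4.98 in DS, with overlapping groups near background and a difference of -0.03 (standard error 0.04, adjusted p = 0.746 from limma). HTA7 minus HTA6 was -0.15, 0.13 and -0.02 on the DT arrays and -1.76, -1.65 and -1.70 on the DS arrays.

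**Figure D2:**
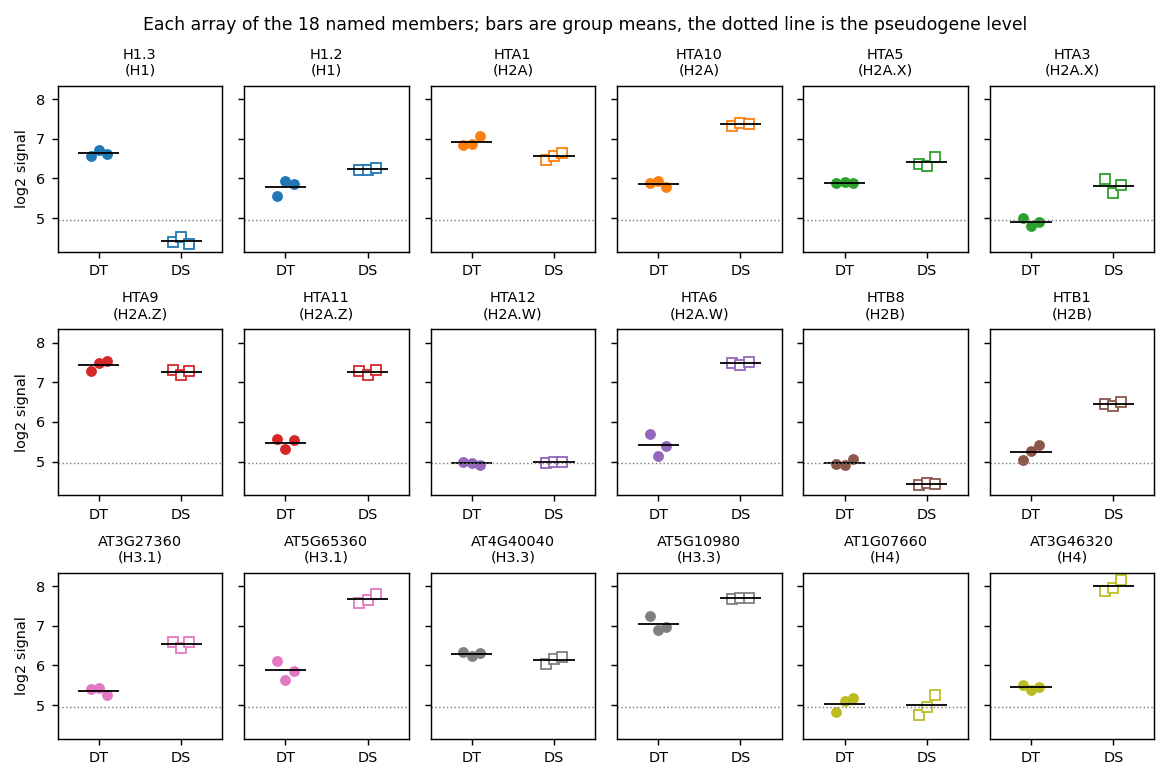
Log2 signal (y axis) on each array for the member with the highest and the one with the lowest difference of each class, DT as filled circles left of DS as open squares. Bars are means of 3 arrays and the dotted line at 4.96 is the level under which 95% of pseudogenes lay; H1.3 lies above that line in DT and under it in DS, while HTA6, HTA11 and AT3G46320 lie nearer to it in DT than in DS.

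Compared by mode of incorporation, the 28 canonical genes (H2A, H2B, H3.1 and H4) included 12 called lower (42.9%). At the adjusted threshold of limma 22 were lower (78.6%) and 2 higher, and the median log2 difference was -0.79. The 2 higher were HTA1 and HTB8, of which HTB8 lay below the pseudogene level in both groups. The 11 variant genes (H2A.X, H2A.Z, H2A.W and H3.3) included 2 called lower (18.2%), HTA6 and HTA11. At the adjusted threshold 7 were lower (63.6%) and 0 higher, with a median of -0.51. Over all genes 1.36% were called lower, and at the adjusted threshold 19.9% were lower and 9.97% higher. The mean of the canonical genes was 5.50, 5.39 and 5.47 on the DT arrays and 6.25, 6.25 and 6.36 on the DS arrays. For the variants it was 5.90, 5.79 and 5.86 on the DT arrays, against 6.45, 6.42 and 6.50 on the DS arrays. Canonical minus variant was -0.40, -0.41 and -0.39 in DT, against -0.20, -0.17 and -0.14 in DS, which do not overlap and differ by -0.23. With dim genes left out the difference was -0.35 over 35 genes, where only canonical genes, of H2B and H4, had been removed. Either value was small beside the range within the classes: the variants alone reached from -2.06 to 0.17 and the canonical genes from -2.55 to 0.54. The direction also differed between families. The class mean changed by -1.485 in H3.1 and by -0.175 in H3.3. In the H2A family it changed by -0.58 in canonical H2A, which was less than in H2A.X (-0.71), H2A.Z (-0.76) and H2A.W (-0.82). H2B and H4 have no variant class here. Canonical minus variant was given no test, because the score is taken over chosen genes.

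**Figure D3:**
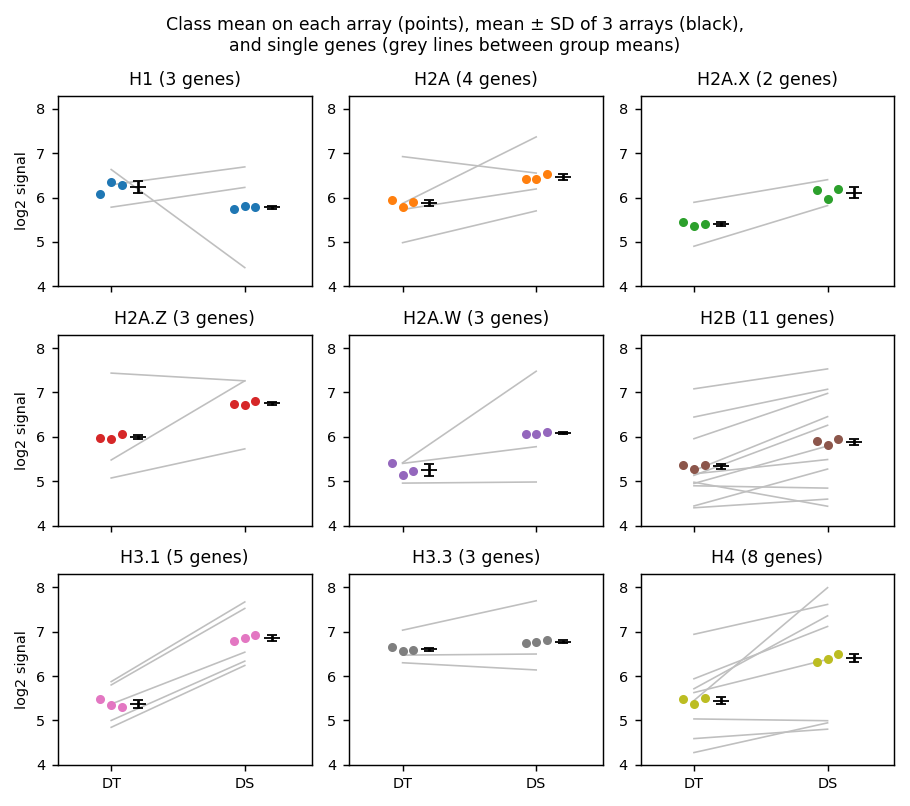
Mean log2 signal of each histone class (y axis) on each array, DT left of DS, as coloured points with the mean and SD of 3 arrays in black. Grey lines join the group means of single genes: all 5 H3.1 lines are higher in DS, by 1.17 to 1.80, while H1, H2A and H2B hold genes that passed limma's adjusted threshold in both directions.

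Genes with similar sequence can share signal on an array. Of the 25-base words in the exons of a histone gene, a median of 3.08% occurred elsewhere in the genome, on either strand. Matches inside the gene's own span were not counted, so bases common to overlapping genes do not enter this share. It was under 5% in 29 of the 42 genes. Among these 29, 8 were called lower and 1 higher. The share was 0% in the 3 H1 genes, 0.708% in HTA11, 0.273% in HTA6 and 2.29% in AT5G65360. It was highest in H4, with 45.1% in AT1G07660, 38.9% in AT3G46320 and 36.3% in AT3G45930, while AT3G53730 had 0.723%. In H2B, HTB9 had 20.9% and HTB11 19.2%. The probes behind each value are not given in the sources used here, so the H4 signals of single genes are uncertain to that extent. Across the 42 genes, which are not independent, Spearman's rho between this share and the log2 difference was -0.33.

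Of 9 pairs of neighbouring histone genes less than 20 kb apart, 6 had both members lower at the adjusted threshold of limma, 3 had neither passing and 0 were mixed, although the sizes differed within pairs. As 73.8% of the 42 genes were lower at this threshold, pairs with both lower are frequent whatever their position. Among the pairs with neither passing, HTB3 with AT2G28740 and HTA12 with HTB10 lay near background. AT5G10390 and AT5G10400 lie 577 bases apart and fell by 1.34 and 1.39 on the log2 scale. AT4G40030 and AT4G40040 are 42 bases apart with differences of -0.02 and 0.16. HTA6 and HTB4 lie 10656 bases apart and differed by -2.06 and -0.45, and AT3G45930 lies 13277 bases from HTB9, with -1.64 and -1.02. HTB10 lies with all its 522 bases inside HTA12, on the opposite strand. In all, 8 of the 42 genes overlap a gene of the table on the opposite strand, and the strand read by the probes is not given in the sources used here. Of the 24 genes with 1 coding exon, 11 were called lower (median -0.84), and of the 18 with more, 3 were (median -0.45). The first group holds all H2B, H3.1 and H4 genes and the other all H1, H2A and H3.3 genes, variants included, so exon number and class cannot be told apart.

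Promoters were searched because members of several classes moved together. Plant histone genes are known for a promoter octamer, CGCGGATC, and a hexamer, ACGTCA, that is bound by bZIP proteins in wheat. In the 250 bases before the annotated gene start, on both strands, the octamer stood in 10 of the 42 histone genes and in 0.139% of 25955 promoters (36 in all). Its 10 carriers were H1.1, HTA10, HTA13, HTA6, AT5G65360, AT1G09200, AT5G10400, AT4G40040, AT1G07660 and AT5G59690. Of these, 5 were called lower and their median was -1.03, and among the 32 without it 9 were called lower and the median was -0.66. The carriers reached from -2.06 in HTA6 to 0.16 in AT4G40040. AT3G46320, the H4 gene with the greatest fall, had no match in this window. The following octamers (capitals, RefSeq TAIR10.1, 5′ to 3′ on the gene's strand) come from 5 called genes and 2 H4 genes that were not called.
HTA6, -2.06, minus strand, chr5:24116309-24116356: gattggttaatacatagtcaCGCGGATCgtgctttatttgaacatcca
AT5G65360, H3.1, -1.80, minus strand, chr5:26120680-26120727: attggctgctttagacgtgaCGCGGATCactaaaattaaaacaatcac
AT1G09200, H3.1, -1.73, minus strand, chr1:2972397-2972444: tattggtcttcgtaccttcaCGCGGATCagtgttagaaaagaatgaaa
HTA10, -1.50, plus strand, chr1:18926717-18926764: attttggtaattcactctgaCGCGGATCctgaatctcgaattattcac
AT5G10400, H3.1, -1.39, minus strand, chr5:3271050-3271097: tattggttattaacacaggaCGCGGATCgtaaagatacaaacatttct
AT5G59690, H4, -0.67, plus strand, chr5:24051383-24051430: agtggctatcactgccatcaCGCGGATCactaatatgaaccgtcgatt
AT1G07660, H4, 0.04, plus strand, chr1:2368687-2368734: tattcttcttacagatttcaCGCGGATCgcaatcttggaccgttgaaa

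The hexamer stood in 11 of the 42 promoters, 8 of them of H2B genes, against 7.81% of all promoters. Among its carriers 5 were called lower, with a median of -0.85 and a range of -1.39 to 0.05. Among the 31 genes without it 9 were called lower and the median was -0.51. As 8 of the 11 carriers are H2B genes, hexamer and class cannot be told apart. HTB1 (-1.21), HTB2 (-1.13) and HTB3 (0.05) all hold it, shown here in capitals for the H2B gene that fell most, its neighbour in size of fall and 1 of the carriers that did not pass (HTB10 is another).
HTB1, plus strand, chr1:2412887-2412932: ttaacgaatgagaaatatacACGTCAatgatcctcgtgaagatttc
HTB2, minus strand, chr5:7652884-7652929: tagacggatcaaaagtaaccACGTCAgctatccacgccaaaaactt
HTB3, plus strand, chr2:12326738-12326783: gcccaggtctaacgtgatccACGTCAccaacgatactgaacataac
A nonamer of histone promoters, CATCCAACG (0.158% of all promoters), and the telomere-like AAACCCTA (4.42%) were found in 0 of the 42 windows. The core of the abscisic acid response element, ACGTGNC, a search added after the data were seen, was found in 7 of 42 against 8.76% of all promoters. Among its carriers 2 were called lower and 0 higher, with a median of -0.83 and a range of -1.80 to 0.54. At the adjusted threshold of limma 5 of the 7 were lower and 1 was higher. Among the 35 genes without this core 12 were called lower and 1 higher, with a median of -0.66. In some H2B promoters it overlaps the hexamer, and in AT5G65360 it overlaps the octamer. H1.3 had no match, and HTB8, the H2B gene that rose, had overlapping matches on both strands.
HTB8, minus strand, chr1:2563751-2563797: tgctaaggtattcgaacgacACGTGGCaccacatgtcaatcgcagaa

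**Figure D4:**
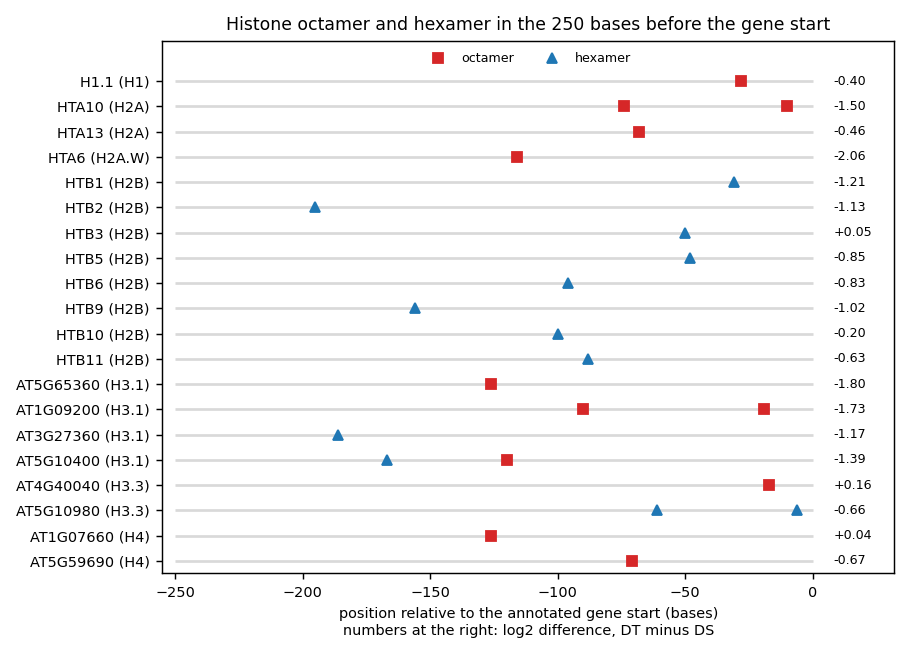
Positions of the octamer (squares) and hexamer (triangles) in the 250 bases before the annotated gene start (x axis, bases) of the 20 histone genes that hold either, with each gene's log2 difference, DT minus DS, at the right. The octamer occurs in H1.1, H2A, H2A.W, H3 and H4 genes and the hexamer mostly in H2B genes, and both kinds of promoter include genes that differed by 0.16 or less in size.

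Histone chaperones passed limma's adjusted threshold about as often as genes in general. Among 17 histone chaperones, 0 were called, and at the adjusted threshold of limma 3 were lower (17.6%), 2 higher (11.8%) and 12 in neither direction (70.6%), against 19.9%, 9.97% and 70.1% of all genes. The median was 0.10. The 3 lower genes were ASF1B, a chaperone of newly made H3 and H4 (-0.51), and FAS1 (-0.37) and FAS2 (-0.20), subunits of the CAF-1 complex that delivers H3.1 at replication forks. The 2 higher were SSRP1, a subunit of the FACT complex (0.51), and UBN1, a partner of the H3.3 chaperone HIRA (0.45). HIRA itself differed by 0.11 and did not pass. Nor did MSI1 (-0.13), ASF1A (-0.17), SPT16 (0.13) and UBN2 (0.11) of the same list. Among the chaperones named, FAS2, HIRA and UBN2 lay below the pseudogene level in both groups, FAS1 only in DT and UBN1 only in DS. Their small differences are therefore read near background. Of 8 genes for H2A.Z deposition, 0 were called. At the adjusted threshold 1 was lower (12.5%) and 3 were higher (37.5%), a larger share higher than the 9.97% of all genes. They lay between YAF9A (-0.20) and ARP4 (0.40). PIE1, the motor of the SWR1 complex, differed by -0.01, with both group means below the pseudogene level (4.63 in DT and 4.64 in DS).

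Genes that act with replication were mostly lower in DT, as the H3.1 and H4 genes were. Of 14 DNA replication genes 13 were lower (92.9%) at the adjusted threshold of limma and 0 higher, against 19.9% and 9.97% of all genes. Their median was -0.41, and 3 were called lower (21.4%), against 1.36% of all genes. The 3 called were TSO2, a small subunit of ribonucleotide reductase (-1.69), and the sliding clamp genes PCNA2 (-1.28) and PCNA1 (-1.16), and the smallest difference was that of RNR2A (-0.16, adjusted p = 0.0993 from limma). Many of these signals were near background. MCM2, MCM5, MCM6, CDC45 and CDC6 lay below the pseudogene level in both groups. MCM3, MCM4, MCM7, CDT1A and PCNA1 lay below it in DT only, where PCNA1 averaged 4.70, against 5.86 in DS. Of 8 genes for keeping heterochromatin and DNA methylation through replication, 0 were called and 6 were lower at the adjusted threshold, with a median of -0.36. These lay between the DNA methyltransferase CMT3 (-0.73) and TSK (-0.13, not passing). The mean over the 8 was 4.68 to 4.73 on the DT arrays, below the pseudogene level, and 5.02 to 5.09 on the DS arrays.

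**Figure D5:**
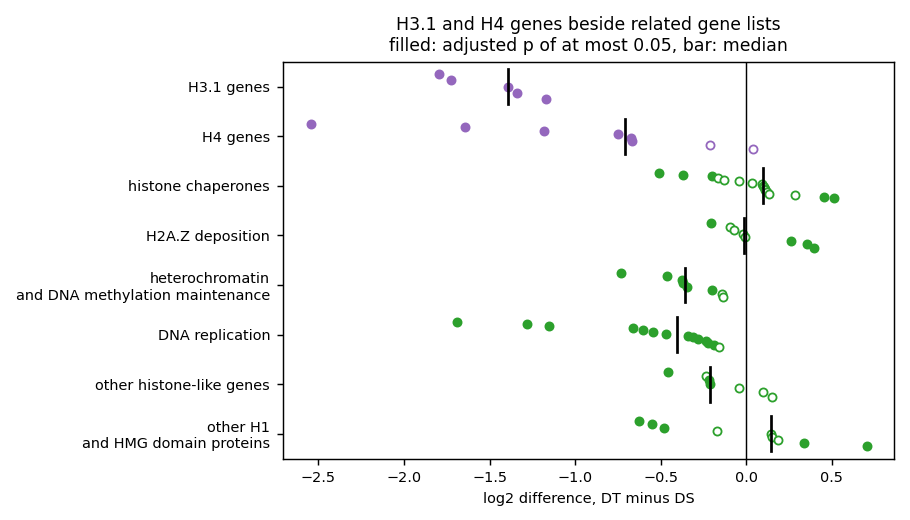
Log2 difference, DT minus DS (x axis), of the H3.1 and H4 genes and of each gene in 6 lists of related function, with filled points where limma's adjusted p was 0.05 or less and bars at the median. The medians are -1.39 for H3.1, -0.71 for H4 and -0.41 for DNA replication, and 0.10 for histone chaperones.

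The label of the tissue was set against genes of reserve mobilisation, which are active in germinated seeds. Their mean signal was 7.94 to 7.97 on the DT arrays and 8.03 to 8.15 on the DS arrays, with ICL at 0.12 and KAT2 at -0.36. Of these 4 genes 2 were lower (50.0%) and 0 higher at the adjusted threshold of limma, against 19.9% and 9.97% of all genes. Of 5 endosperm markers, 2 were higher (40%) and 0 lower at the adjusted threshold of limma. These were MAN7 (1.21) and EXPA2 (0.54). EPR1 (0.17), CYP707A2 (0.04) and MAN5 (-0.07) did not pass, and MAN5 lay below the pseudogene level in both groups. The mean over the 5 endosperm markers was 5.75 to 6.06 in DT and 5.48 to 5.59 in DS. Of 8 meristem markers, 1 was lower (12.5%), SHR (-0.25), and 0 were higher, so they passed less often than genes in general. The highest was CLV3 (0.08, not passing), and STM, WUS, CLV3, PLT1, PLT2 and WOX5 were below the pseudogene level in both groups. The mean over the 8 was 4.68 to 4.72 in DT and 4.73 to 4.79 in DS. The part of these cell types in the histone differences was not tested.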

How the data were processed

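RNA of 3 DT and 3 DS replicates was hybridized to Affymetrix Arabidopsis SNPtile arrays. The authors extracted signals with an R script and a TAIR9-based annotation and applied quantile normalization. The deposited values, 1 per gene and array, were taken as log2 signals: this scale was inferred from their range and from a supplementary heading of the study, and every fold rests on it. How probes were summarised and whether background was subtracted is not given in the sources used here, and signals shared between similar genes would draw their differences together.

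From these values, DT was compared with DS over all 30509 genes in R 4.3.3 with limma 3.58.1 (lmFit, eBayes, prior degrees of freedom 3.71, no covariate), with Benjamini-Hochberg adjustment. The filter, a log2 difference of 1 and p of 0.05, is the study's. On simulated data of 30509 genes with 200 changed by 1.5, 200 were called and 1 other. This change lay past the threshold of 1 and was large beside the median SD of a gene (0.0701 in DT, 0.0616 in DS). The simulation therefore checks the code and says nothing about genes near the threshold. Locus identifiers were matched to RefSeq TAIR10.1 (30078 matched), from which Python 3.11.15 and Biopython 1.88 took coordinates and sequences. For proteins, the isoform nearest the class median in coding length was used. The 42 members, the gene lists and the tests were chosen with earlier results of these data known. Array values are given for the highest and lowest member of each class and for H1.3 and HTB8, and from each list the genes with the largest rise and fall are named, others being named after their values were seen. Alternatives were other scaling, variance models, thresholds, dim genes left out, a replicate block and each array left out.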

Additional observations from a re-analysis of the deposited data

How the results depend on the processing

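Of the 42 genes, 0 changed their call with an adjusted p in place of p, an intensity trend or robust prior, or the replicate block. Same-numbered replicates shared only a number (correlations of their deviations 0.06, -0.01 and 0.10), and the block called 14 histone genes lower and 1 higher, with 264 genes higher and 415 lower in all (263 and 415 without it). With a log2 difference of 0.5 as threshold, 25 histone genes were called lower and 2 higher, among 2010 lower and 893 higher of all genes. With quantile normalization repeated, 5 histone genes were higher at the adjusted threshold of limma (HTA9 and AT4G40040 added), and class medians were -0.48 for H2A, -0.56 for H2A.Z, -0.53 for H2B, -1.29 for H3.1 and 0.10 for H3.3. Centring made the H3.3 median 0.018. Without dim genes, medians were -0.83 for H2B (9 of 11 genes) and -0.96 for H4 (6 of 8 genes), and canonical minus variant was -0.35. The genes left out were all H2B and H4 genes, so only the canonical side of this comparison lost genes. With each replicate left out, the H2A median lay between -0.67 and -0.51 and that of H3.3 between -0.0745 and 0.036.

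Signs turned only in genes near 0: HTA12 (0.017 centred, 0.047 with quantile normalization repeated), AT4G40030 (0.018 and 0.10 under the same settings, -0.0745 to 0.036 with a replicate left out, above 0 without DT replicate 1), HTB3 (-0.060 to 0.125, below 0 without DS replicate 2) and AT1G07660 (-0.079 to 0.178, below 0 without DS replicate 1 and, at -0.034, without DT replicate 3). The cause was not tested. At an adjusted p, HTB7 was lost with quantile normalization repeated (-0.23), and AT4G40040 was gained with centring (0.20), repeated normalization (0.30) and without dim genes (adjusted p = 0.0445 from limma). Signal near the pseudogene level limits the differences of the 10 histone genes that lay under it in DT.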

Other observations

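Of 7 histone-like genes outside the 9 classes, 0 were called, and at the adjusted threshold of limma 3 were lower (42.9%, against 19.9% of all genes), and the median log2 difference was -0.21. The greatest fall was that of CENH3, the centromeric H3 (-0.45, adjusted p = 0.000347 from limma), and the highest value was that of AT5G12910 (0.15, adjusted p = 0.121 from limma). Their mean signal was 4.53 to 4.71 on the DT arrays and 4.74 to 4.80 on the DS arrays, which is near background.

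Among 9 further proteins with an H1 or high mobility group domain, 3 were lower (33.3%) and 2 higher (22.2%) at the adjusted threshold of limma. This compares with 19.9% and 9.97% of all genes, and 0 of the 9 were called, with a median of 0.15. HMGB1, a small DNA-bending chromatin protein, was highest (0.70, adjusted p = 2.06e-05 from limma), and HMGA, which binds AT-rich DNA, was lowest (-0.63, adjusted p = 0.000119 from limma).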
